A study of Mus musculus with 6 samples.

Results

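Open chromatin was described at the genes of the CD3 chains, Cd3e, Cd3d, Cd3g and Cd247, and at Ptcra, the gene of the pre-T cell receptor alpha chain, in 6 mouse thymus libraries profiled by ATAC-seq, an assay in which a transposase tags DNA that is not wrapped in closed chromatin. The measured items are peak summits, the points of highest signal within a peak. Every summit from 30 kb before to 30 kb after the body of one of the 5 genes was taken, each was extended by 250 bp on either side, and overlapping stretches of all libraries were joined into regions. This gave 52 regions of the 73702 in the genome. The windows of Cd3e, Cd3d and Cd3g overlap on chromosome 9 and hold 17, 19 and 16 regions, 20 in all, while the Cd247 window on chromosome 1 holds 25 and the Ptcra window on chromosome 17 holds 7.

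The series asks which open regions differ between thymi of mice with a dimeric form of p53 and thymi of p53-null mice. One group carried the p53 AD allele over a null allele (p53 AD/-, 3 libraries) and the other was p53 -/- (3 libraries, called null here), so a null allele is shared by both and a wild-type group was not analysed here. All libraries are from thymus taken at 4 weeks of age on a background mixed from BALB/C and C57BL6. The germline p53 alterations are in every cell of the mouse, and the thymus was profiled whole, so that fewer cells of a type and less accessible DNA per cell cannot be told apart. Separate mice are not stated for the libraries, and p-values therefore measure the spread between these libraries, which may be technical.

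The T cell receptor cannot signal by itself. Its antigen-binding chains sit in the membrane with pairs of CD3 epsilon and delta, CD3 epsilon and gamma, and the zeta pair encoded by Cd247, whose cytoplasmic tails carry the tyrosine motifs that the kinase LCK phosphorylates and ZAP-70 binds. In immature thymocytes the rearranged beta chain first pairs with the pre-T cell receptor alpha chain encoded by Ptcra, and the signal of this pre-receptor drives proliferation and the change to the CD4+ CD8+ stage. Ptcra is known to be shut off as thymocytes mature, and the CD3 genes stay on in T cells throughout life. Enhancers are known at the 3' end of Cd3d and upstream of Ptcra, the latter bound by E proteins and by the Notch effector RBPJ.

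The promoters are shown because each of the 5 start sites had a summit in every library. The sequences are RefSeq's on GRCm38.p6, 5′ to 3′ in the direction of transcription, and run from position -250 to -1, the base before the start site. Capitals mark matches to any of 11 short motifs searched on both strands.
Cd3g promoter, chr9:44980432-44980681, minus strand: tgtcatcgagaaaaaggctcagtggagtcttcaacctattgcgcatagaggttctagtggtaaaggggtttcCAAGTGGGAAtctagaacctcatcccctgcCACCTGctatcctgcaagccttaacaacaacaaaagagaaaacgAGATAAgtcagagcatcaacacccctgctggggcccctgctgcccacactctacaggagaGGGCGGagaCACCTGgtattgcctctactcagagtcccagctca
Cd3d promoter, chr9:44981536-44981785, plus strand: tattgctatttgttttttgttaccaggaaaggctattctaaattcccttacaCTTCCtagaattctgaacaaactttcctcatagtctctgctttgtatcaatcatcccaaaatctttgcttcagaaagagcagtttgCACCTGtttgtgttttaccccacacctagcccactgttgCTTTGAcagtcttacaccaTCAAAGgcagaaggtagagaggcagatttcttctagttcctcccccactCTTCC
Cd3e promoter, chr9:45009612-45009861, minus strand: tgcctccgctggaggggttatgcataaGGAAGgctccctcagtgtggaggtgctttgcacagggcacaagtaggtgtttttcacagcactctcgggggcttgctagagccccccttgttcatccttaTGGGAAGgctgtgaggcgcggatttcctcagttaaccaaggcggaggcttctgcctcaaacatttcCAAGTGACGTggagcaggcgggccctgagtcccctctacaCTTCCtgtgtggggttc
Cd247 promoter, chr1:165788431-165788680, plus strand: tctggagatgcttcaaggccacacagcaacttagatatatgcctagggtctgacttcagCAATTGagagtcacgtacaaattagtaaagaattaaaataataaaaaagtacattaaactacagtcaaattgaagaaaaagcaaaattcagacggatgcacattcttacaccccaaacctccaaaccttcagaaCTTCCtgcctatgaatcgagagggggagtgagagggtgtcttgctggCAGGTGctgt
Ptcra promoter, chr17:46763713-46763962, minus strand: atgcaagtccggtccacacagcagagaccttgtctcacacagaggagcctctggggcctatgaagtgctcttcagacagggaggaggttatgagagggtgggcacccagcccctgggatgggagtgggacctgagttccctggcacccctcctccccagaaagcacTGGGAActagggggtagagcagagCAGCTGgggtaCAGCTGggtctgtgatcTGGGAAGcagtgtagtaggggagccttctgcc

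The E box CANNTG, which E proteins bind, was in 5 of 5 promoters and in 66.2% of all 32851 promoters of this length. Its form CAGCTG, which is also a match to CANNTG, was in the Ptcra promoter alone among the 5, from -60 to -55 and from -49 to -44, and was in 13.0% of all promoters. The ETS core GGAAG was in 4 promoters, all but that of Cd3g, and in 64.1% of all. The TCF motif CTTTGA was in the Cd3d promoter alone, from -73 to -68 and, on the other strand, from -54 to -49, against 13.8% of all promoters. The Cd3e promoter alone held the CREB motif TGACGT, from -53 to -48, where it overlapped an E box, against 6.47% of all. The GATA motif AGATAA and the Sp and KLF motif GGGCGG were in the Cd3g promoter alone, from -104 to -99 and from -44 to -39, against 9.99% and 32.7% of all. The Ikaros core TGGGAA was in the promoters of Cd3e, Cd3g and Ptcra and in 21.6% of all. It overlapped GGAAG in Cd3e and, at one of its places, in Ptcra, and an E box in Cd3g. The RUNX motif TGTGGT, the second GATA motif TGATAA and the TATA box TATAAA were not in these letters of any of the 5, against 14.0%, 7.94% and 12.4% of all promoters. The GC content was 60.4% in Ptcra, 57.2% in Cd3e, 51.6% in Cd3g and 41.2% in both Cd3d and Cd247, with a median of 52.4% over all promoters.

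The authors deposited between 44496 and 60160 summits per library, and AD/- library 3 had the fewest. The lists give no read depth, so how much was detected was compared by their lengths. Their scores differed as well. The median score was 77.3 in null library 2, whose list was of middle length, against 24.6 to 36.2 in the other libraries. A summit is given below by its score percentile, which is the rank of its score in its own library with 100 at the top. This does not remove list length. Over the regions with a summit in all 6 libraries, the mean percentile of a library rose with the length of its list. It was 65.8 in AD/- library 2, the longest, and 55.1 in AD/- library 3, the shortest. AD/- library 3 had the lowest percentile in 71.9% of the 38374 regions that had a summit in all 6 libraries. Differences of percentile between genotypes are therefore also given without this library, or with every list shortened to its 44492 best summits. Of all 17273 genes with a listed start site, 55.2% had a summit there in all 6 libraries and 39.3% in none. Start sites of thymocyte markers had a summit in all 6 libraries for 9 of the 9 genes with a listed start site, while those of Cd79a, Pax5 and Cd22 of B cells, Lyz2 and Mpo of myeloid cells, Klf1 and Gata1 of erythroid cells and Foxn1 and Psmb11 of thymic epithelium had none in any library. In other lineages all 6 libraries had a summit for 1 of 4 B cell genes (Ebf1, median percentile 78.1). The same held for 2 of 6 myeloid and dendritic genes (Cebpa, 66.5, and Cebpb, 81.7) and 2 of 5 erythroid genes (Epor, 66.8, and Hemgn, 82.2). It also held for 1 of 4 NK and gamma-delta T cell genes (Sox13, 21.4) and 2 of 8 thymic epithelium genes (Epcam, 73.9, and Aire, 79.4). Itgam, Eomes, Krt18 and Dll4 had a summit in some libraries only. The lowest thymocyte marker was Dntt (37.1).

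Start sites are described first. Cd3g, which encodes CD3 gamma, lies on chromosome 9 from 44969572 to 44980431 on the minus strand. Its best summit within 1 kb of the start site stood at percentiles of 85.2, 85.8 and 83.3 in AD/- libraries 1, 2 and 3 and 85.1, 88.6 and 84.4 in null libraries 1, 2 and 3. Cd3g ranked first of the 5 genes in every library. Cd3d, the CD3 delta gene, begins 1355 bp away on the other strand (44981769 to 44987052), and the pair is transcribed in opposite directions. Its start site stood at 67.6, 68.8 and 60.6 in AD/- and 66.4, 68.2 and 66.0 in null, the lowest of the 5 genes in every library. The ends of the order are thus held by neighbouring, divergent genes. The last place of Cd3d holds for the 1 kb distance only. A distance of 2 kb takes in the summits at the Cd3g start site, and the AD/- minus null difference of both genes was then -1.24 points.

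Cd3e, the CD3 epsilon gene (44998735 to 45009663, minus strand), had percentiles of 81.9, 85.6 and 77.1 in AD/- and 84.0, 84.0 and 83.3 in null at its start site. Cd247, the zeta chain gene, spans 91202 bp of chromosome 1 from 165779952 to 165871153 on the plus strand, and its listed start site lies 8729 bp inside the annotated gene. The values there were 80.0, 82.3 and 79.4 in AD/- and 84.0, 85.4 and 82.7 in null. Ptcra, on chromosome 17 from 46755663 to 46763712 on the minus strand, had 80.4, 83.1 and 79.1 in AD/- and 79.5, 82.0 and 80.8 in null. By the median over 6 libraries the order was Cd3g (85.2), Cd3e (83.7), Cd247 (82.5), Ptcra (80.6) and Cd3d (67.0). Cd3e and Cd247 changed places between libraries. Ptcra ranked 4 in each null library, where it lay below both. It ranked 3 in each AD/- library, above Cd247 in libraries 1 and 2 and above Cd3e in library 3. The percentiles of Ptcra itself overlapped between genotypes. This split of the order was seen after the values were known, and how often other genes show one was not counted. Differences between genes were not tested. These values lie in the lower part of the genome's active start sites: the median over the 9529 genes with a summit in all 6 libraries was 89.9, with quartiles of 80.8 and 95.2, and the 5 genes stood at the 12.3 (Cd3d) to 34.5 (Cd3g) percentile of those genes.

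The summits lay close to the listed starts. Positions are given from the start site, negative upstream of it. At Cd3e the summits were between -44 and 13 bp, with AD/- libraries 2 and 3 and null libraries 2 and 3 at the same base, -33 bp. At Cd247 they were at 16 to 56 bp in every library. At Ptcra they ran from -18 to 30 bp, at Cd3g from -17 to 43 bp, and at Cd3d from -65 to 39 bp. The range over libraries was 40 bp at Cd247 and 104 bp at Cd3d, the narrowest and the widest of the 5.

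**Figure D1:**
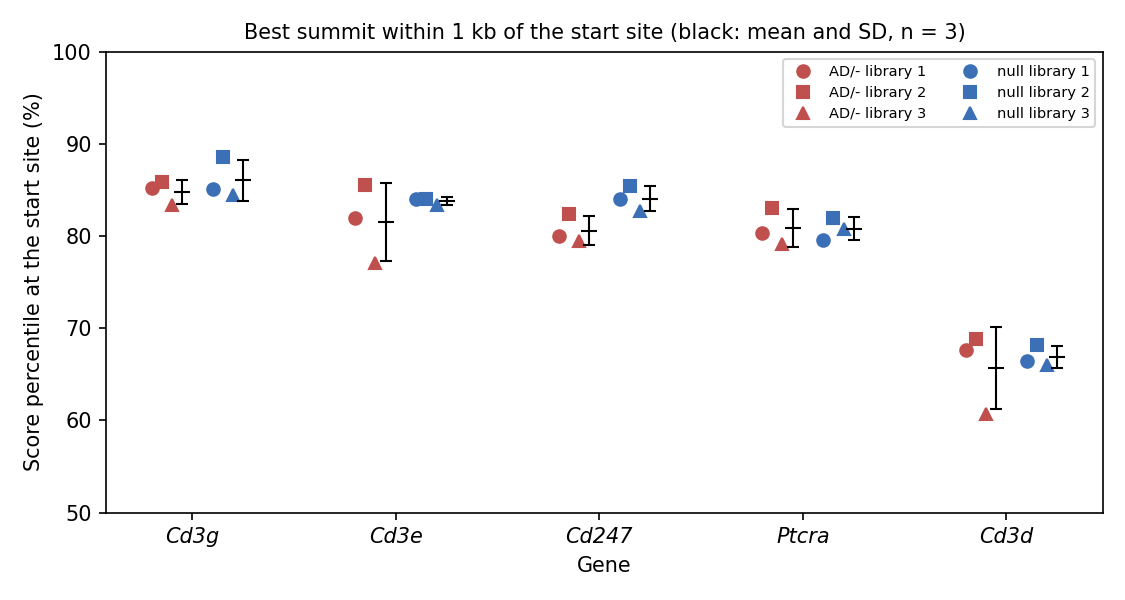
Score percentile of the best summit within 1 kb of the start site (vertical axis, percent, drawn from 50 to 100) for the 5 genes, with 1 point per library, AD/- in red and null in blue, and the mean and SD of 3 libraries in black. Cd3d lies lowest in every library, and Cd247 is the gene whose AD/- and null points do not overlap.

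Within the chromosome 9 cluster, 15 of 20 regions had a summit in all 6 libraries. The highest of them, by its median, was neither a start site of the cluster nor that of a neighbour. It was centred at 44986655, inside Cd3d at -397 bp from its 3' end (negative before that end), with percentiles of 87.9, 88.4 and 85.8 in AD/- and 88.4, 88.3 and 86.7 in null. This 3' region exceeded the start site of Cd3d in every library, by the plain order of the values. The start sites of Cd3g (median 85.2) and of the neighbouring ubiquitin ligase gene Ube4a (84.9) came next. A region inside Ube4a, at 44954612, stood at 82.5, 83.1 and 74.5 in AD/- and 81.6, 80.7 and 83.0 in null.

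Around Cd3e, regions lay 403 and 1948 bp beyond its 3' end, and inside the gene at -616 and -1236 bp from that end and at 1122 and 1991 bp from the start site. Upstream of the start site there were regions at -1068, -5458, -6425 and -13384 bp, each found in all 6 libraries. The region at -6425 bp was the highest of these, with 67.9, 71.7 and 63.4 in AD/- and 71.8, 71.9 and 68.0 in null. At the region 403 bp beyond the 3' end, AD/- library 3 stood apart with 15.4, against 48.2 and 57.1 in the other AD/- libraries and 58.3, 54.4 and 55.6 in null. The region at -616 bp was low in every library (9.23 to 31.3), and the one at -1236 bp was found in AD/- library 3 alone (13.5). Of the 5 cluster regions missing from some library, the highest median percentile was 20.7, at the 3' end of Cd3g.

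**Figure D2:**
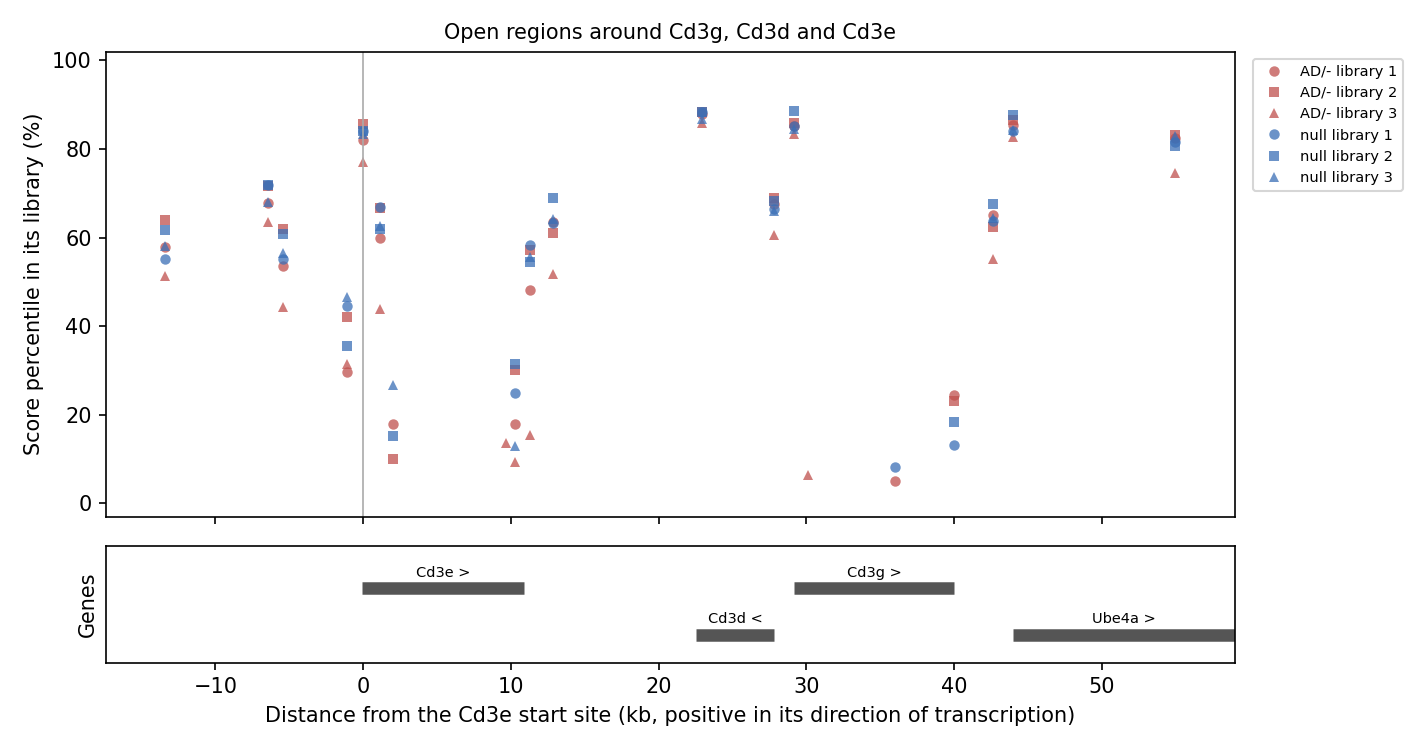
Regions of the Cd3 cluster, drawn by the distance of their centre from the Cd3e start site (horizontal axis, kb) and their score percentile in each library (vertical axis, percent), with gene bodies below and arrows for the direction of transcription on this axis. The region about 23 kb from the start site, at the 3' end of Cd3d, has the highest median of the cluster, with the Cd3g start site above it in null library 2, and the points of AD/- library 3 (red triangles) lie lowest in 14 of the 15 regions found in all libraries.

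The Cd247 window had 14 of 25 regions in all 6 libraries. The highest was the start site of Creg1, a neighbouring gene of a secreted glycoprotein, at 88.5 to 91.9. Inside Cd247, a region 56444 bp after the start site (centre 165845125) was the highest by its median, with 88.1, 86.0 and 78.6 in AD/- and 84.3, 83.1 and 84.8 in null, so that the start site of Cd247 was the lower of the pair in AD/- libraries 1 and 2 and null libraries 1 and 3. A region at -7946 bp from the listed start site, close to the annotated 5' end of the gene, stood at 82.0, 82.3 and 78.2 in AD/- and 82.8, 82.6 and 82.1 in null. The gene table used gives no exons, so regions inside a gene were not sorted into exons and introns. Further regions inside the gene that were found in all libraries had medians from 36.1 to 72.0, at distances of 22708 to 69901 bp from the start site. Of the last 5 regions, from 76638 bp after the start site on and all within the body of Pou2f1, a gene of the octamer-binding factor OCT1, 1 was found in all libraries (46.9 to 55.9) and the other 4 were found in 1 to 3 libraries at percentiles of 0.643 to 26.2.

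**Figure D3:**
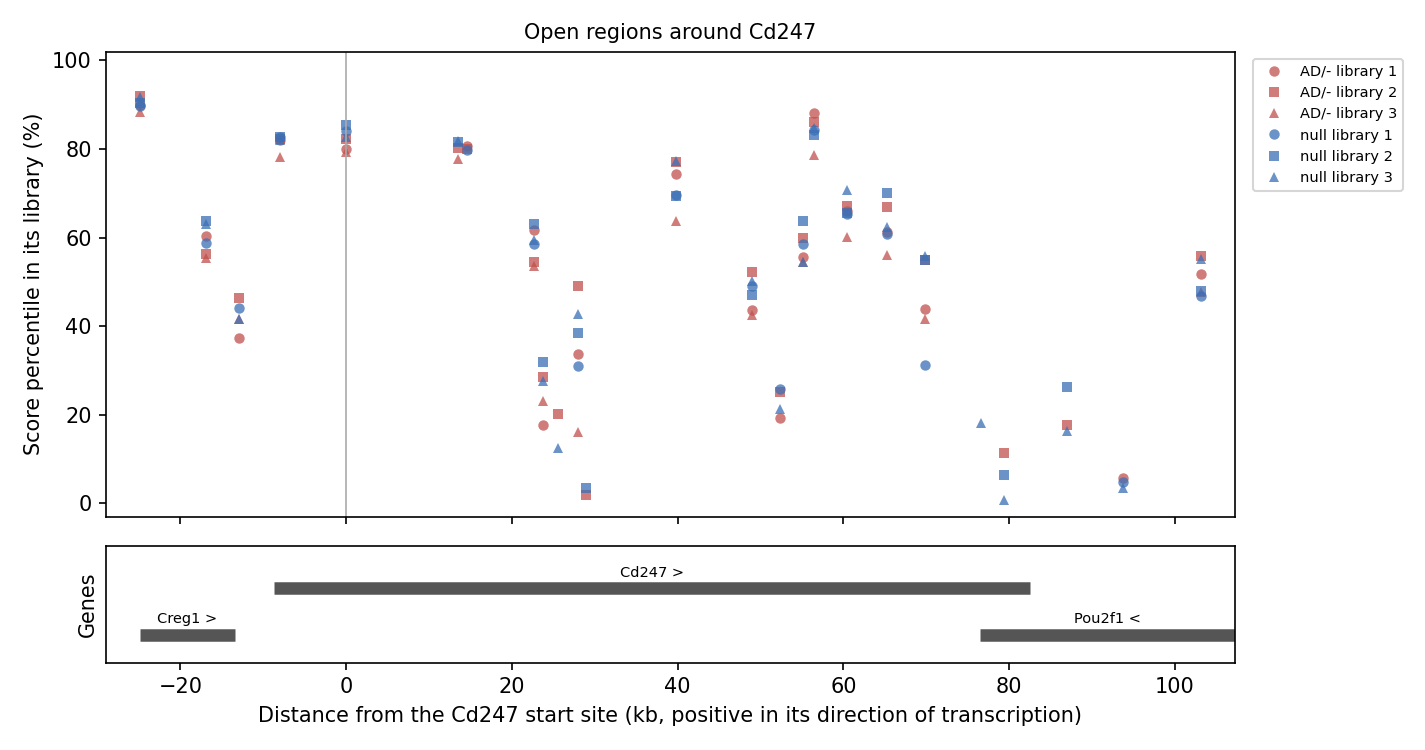
Regions of the Cd247 window, drawn by the distance of their centre from the Cd247 start site (horizontal axis, kb) and their score percentile in each library (vertical axis, percent), with gene bodies below. The highest region is the start site of the neighbour Creg1, at -24928 bp. High regions of Cd247 stand at its start site, near the annotated 5' end, about 14 kb after the start site and about 56 kb after it. The 3' end of Cd247 holds regions that are low and missing from some libraries.

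The Ptcra window was small, with 6 of 7 regions in all 6 libraries. Upstream of the gene, a region at -4403 bp from the start site (centre 46768115) had percentiles of 67.6, 68.6 and 63.6 in AD/- and 67.2, 72.0 and 69.0 in null. The region at -1064 bp was found in AD/- library 1 (28.2) and in null libraries 1 (41.2) and 3 (35.0). Between the start site and the neighbour Cnpy3 no library had a summit, so the body of Ptcra beyond its start held none. The highest region of all 5 windows was the start site of Cnpy3, a gene of a chaperone for Toll-like receptors, at 97.7 to 98.6. The start sites of Rpl7l1, a ribosomal protein-like gene (87.7 to 90.9), and of 2310039H08Rik (76.3 to 83.5) lay upstream.

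**Figure D4:**
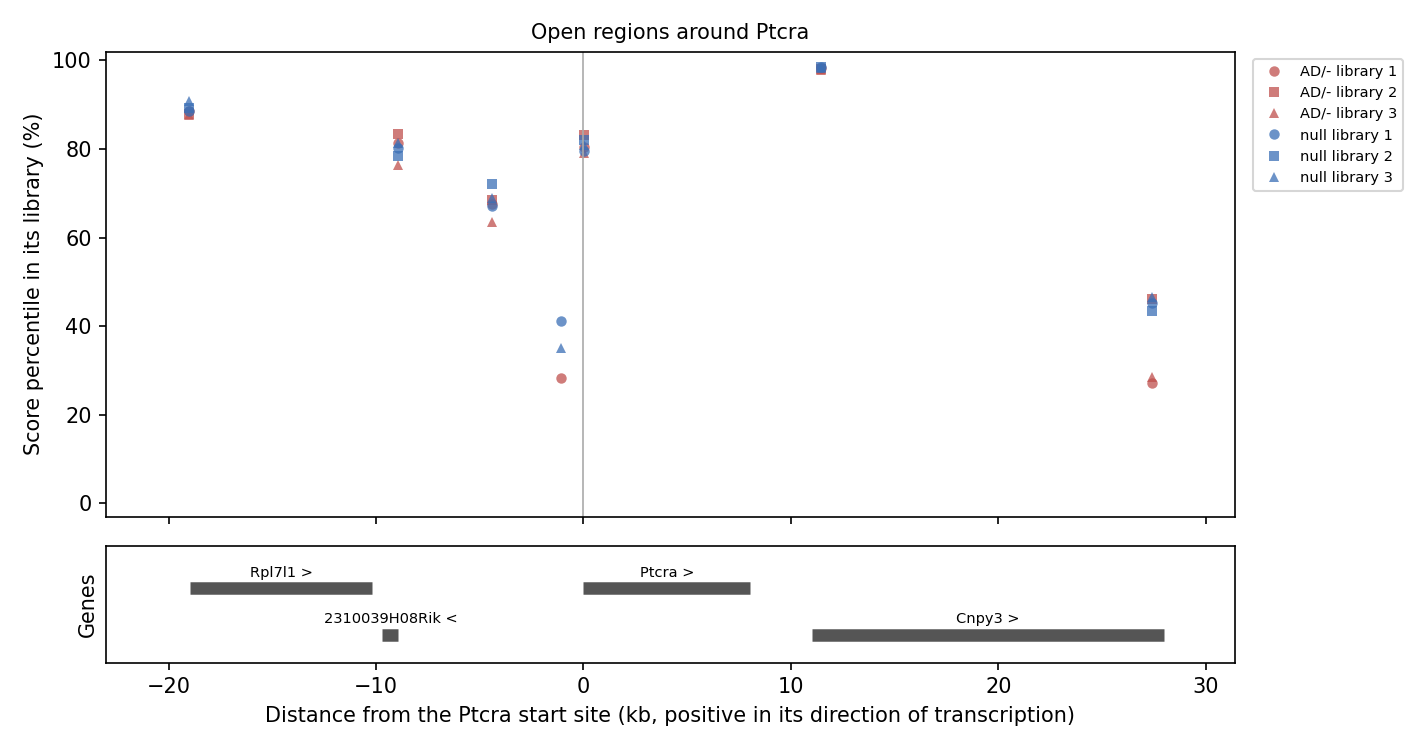
Regions of the Ptcra window, drawn by the distance of their centre from the Ptcra start site (horizontal axis, kb) and their score percentile in each library (vertical axis, percent), with gene bodies below. The start site and the upstream region at about 4 kb have points from all 6 libraries, and the region at about 1 kb upstream has points from 3.

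Presence did not follow genotype at any of the 52 regions. Summits present throughout AD/- (3 of 3) and absent from null were found in 0 of 52 regions, against 0.179% of all regions, and the reverse in 0 of 52, against 0.418%. With 2 or 3 libraries against none the counts were again 0 and 0, against 1.51% and 2.37%. At these background shares a set of 52 regions holds few or none, so the zeros are near the background. Among the 17 regions missing from some library, AD/- libraries 1, 2 and 3 had a summit in 9, 11 and 5 and null libraries 1, 2 and 3 in 7, 7 and 11. The null values lie within the range of the AD/- values.

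No difference in the number of summits per library passed a test. The Cd3 cluster had 18, 17 and 17 in AD/- and 17, 17 and 16 in null, a mean of 17.3 ± 0.58 against 16.7 ± 0.58 (SD, n = 3 each; exact permutation p = 0.6, two-sided). The Cd247 window had 19, 23 and 17 against 18, 19 and 23 (19.7 ± 3.06 and 20 ± 2.65; exact permutation p = 1, n = 3), and the Ptcra window 7, 6 and 6 against 7, 6 and 7 (6.33 ± 0.58 and 6.67 ± 0.58; exact permutation p = 1, n = 3). Adjusted over the 6 windows tested, with those of Cd3e, Cd3d and Cd3g counted singly too, the lowest exact permutation p was 0.9. With 3 against 3 the smallest p this test can give is 0.1.

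At the start sites, the Cd247 values did not overlap between genotypes. The highest AD/- value was 82.3 and the lowest null value 82.7, with means of 80.6 ± 1.55 and 84.0 ± 1.33 (SD, n = 3 each), a difference of -3.45 percentile points (exact permutation p = 0.1, two-sided, the smallest possible; 0.5 adjusted over the 5 start sites by the Benjamini-Hochberg method). Of all 9529 genes with a summit at the start site in every library, 5.06% had AD/- wholly below null and 0.934% wholly above. With lists of equal length the Cd247 values were 75.5, 76.1 and 79.4 in AD/- and 80.5, 81.7 and 77.5 in null, which overlap (difference -2.91, exact permutation p = 0.2, n = 3). On these lists 0 of the 5 start sites had wholly lower or wholly higher AD/- values, against 3.84% and 4.41% of all genes. The differences at Cd3e, Cd3d and Cd3g were -2.28, -1.16 and -1.24 points (exact permutation p = 0.6, 0.9 and 0.6, n = 3 each), and that at Ptcra was 0.0571 (exact permutation p = 1, n = 3). Without AD/- library 3 the differences at Cd3e, Cd3d, Cd3g and Ptcra were -0.0550, 1.37, -0.498 and 0.934, and that at Cd247 was -2.86. With lists of equal length those at Cd3e, Cd3d, Cd3g and Ptcra were -1.17, 1.26, -0.412 and 1.51.

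Over the 35 regions found in all libraries, 3 had AD/- percentiles wholly below null, the Cd247 start site and those of the neighbours Cnpy3 and Rpl7l1, and 0 wholly above, against 5.55% and 0.769% of all such regions. With lists of equal length 2 of 34 regions lay wholly below, against 4.57% of all. They were the region 403 bp beyond the 3' end of Cd3e and a region inside Cnpy3. The one at the start of 2310039H08Rik lay wholly above, against 5.02%. None of the 3 regions first named was among them. The mean percentile of AD/- was below that of null in 31 of 35 regions, and in 75.1% of all regions found in all libraries. AD/- library 3 had the lowest value of the 6 in 31 of the 35. Without AD/- library 3 it was below in 20 of 35, against 40.1% of all, and with lists of equal length in 20 of 34, against 50.1%. The mean over the cluster's 15 regions was 62.2 ± 6.28 in AD/- and 66.3 ± 1.16 in null (SD, n = 3; exact permutation p = 0.4), with AD/- library 3 at 55.3 and the other 5 libraries at 63.6 to 67.7. For the 14 regions of Cd247 it was 63.0 ± 4.35 and 65.0 ± 2.44 (exact permutation p = 0.7, n = 3). For the 6 of Ptcra it was 74.6 ± 2.94 and 77.2 ± 0.637 (exact permutation p = 0.4, n = 3). Without AD/- library 3 the differences of -4.06 in the cluster, -2.01 at Cd247 and -2.57 at Ptcra became -0.622, 0.335 and -1.33, and with lists of equal length -2.17, 0.297 and -1.30. Without AD/- library 2 they were -6.79, -3.96 and -4.19, and without null library 1 the Cd247 difference was -3.63. It was -1.17 without null library 3.

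In the 35 regions the best summits of the 6 libraries spanned a median of 49 bp, and in all 38374 such regions the median was likewise 49 bp. In 1 of the 35 the positions did not overlap between genotypes, against 6.09% of all. This region lies inside Cd247, 22708 bp after its listed start site.

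The number of shared regions, those found in all 6 libraries, was also counted around each gene, as a description with no test. The Cd3d window held 14 shared regions in 65.3 kb, or 21.4 per 100 kb, which ranked 1 among the windows of 21627 protein-coding genes. Cd3e, with 16.9, ranked 28 and Cd3g, with 15.5, ranked 93, although the 3 windows overlap and share most of their regions. Cd247 had 9.26 per 100 kb and ranked 1697, Ptcra had 8.82 and ranked 1994, and the median gene had 2.76. After Cd3d came Cd8b1, the CD8 beta gene (20.1), and Cd52, a lymphocyte surface glycoprotein gene (19.5). The rank of Cd3d was 1 or 2 when any library was left out, 1 for scores of at least 5 and for lists of equal length, and 25 with extensions of 500 bp. It depended on the width of the window: with 50 kb on either side Cd3d ranked 67, and with 10 kb it ranked 390 while Cd3e ranked 5. Of the 35 shared regions, 25 were more than 1 kb from any listed start site of a protein-coding gene, and 28.6% were within it. This compares with 23.5% of all shared regions and 26.8% of those in the windows of all protein-coding genes. A summit in all 6 libraries was found in 67.3% of the 52 regions, compared with 52.1% of all regions and 53.2% of those in the windows of all protein-coding genes.

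**Figure D5:**
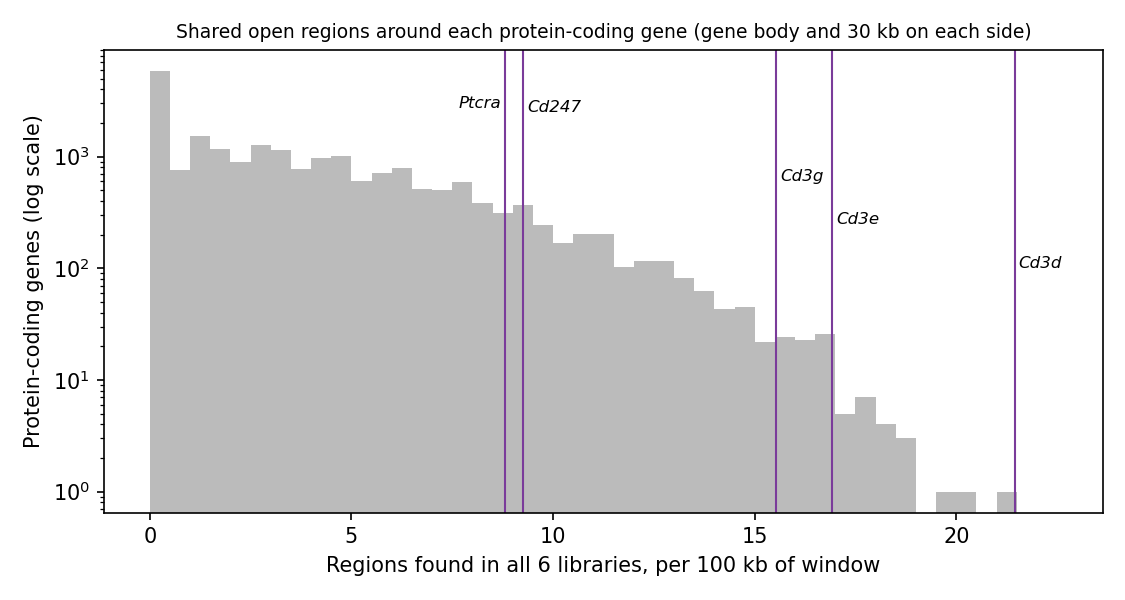
Number of regions found in all 6 libraries per 100 kb of window (horizontal axis) for each of 21627 protein-coding genes (vertical axis, number of genes, log scale), with the 5 genes as vertical lines. Cd3d stands at the upper end with 21.4, followed by Cd3e and Cd3g at 16.9 and 15.5, and Cd247 and Ptcra lie at 9.26 and 8.82.

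Genes that act with these receptors were described at their start sites. Of 32 genes of T cell receptor signalling, 24 had a listed start site, 23 of them had a summit in all 6 libraries and Grap2, an adaptor gene, had none, whereas 55.2% of the 17273 genes with a listed start site had a summit in all libraries. Their medians ran from 74.6 for Lcp2, the SLP-76 adaptor, to 99.6 for Bcl10, a link to NF-kB, and the list's median was 86.1. The kinase genes Lck and Zap70 stood at 90.3 and 84.4 and the adaptor gene Lat at 94.4. AD/- lay wholly below null in 0 of the 23 and wholly above in 0, near the 5.06% and 0.934% of all genes given above. Of the receptor parts of other lineages, 8 of 10 had a listed start site and 1, Hcst, the DAP10 signalling adaptor of NK and T cells, had a summit in all libraries (61.6). Fcer1g, the Fc receptor gamma chain gene related to Cd247, had one in 4 libraries at 8.21 to 18.0, and Igll1 and Vpreb1, which encode the surrogate light chain of the pre-B cell receptor, had none, as had Cd79a. Of 14 regulators, 11 had a listed start site, and 9 had a summit in all libraries, among them the E protein genes Tcf3 (93.2) and Tcf12 (90.9) and Notch1 (89.7). Within 1 kb of the listed start site, Gata3 had one in 3 libraries (74.2 to 74.5) and Rbpj in 1 (64.8). Summits farther away were not counted for these lists.

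Genes whose start site percentiles were most like those of a member were found by the mean absolute difference over the 6 libraries among 9275 genes. For Cd3g they were Stoml1 (0.462 points), Rag1 (0.483) and Syngr1 (0.537), and for Cd3e Hsd17b10 (0.470), Rnpep (0.588) and Nt5dc2 (0.650). For Cd247 they were Fermt3 (0.392), Cacng2 (0.622) and Ptpn14 (0.643), and for Ptcra Cfap58 (0.567), Eif3g (0.616) and Hlf (0.650). For Cd3d the nearest, Pgf (1.18), Cdkn2a (1.23) and Zfhx3 (1.40), were farther away.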

How the data were processed

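For each library the authors deposited a list of summits, each with a score read as the −log10 of the q-value, because the lowest scores of the lists are 1.30 to 1.39 the −log10 of a q-value of 0.05 being 1.30. The submitters' processing notes give the build as GRCm38 and list MACS2 (2.1.2), Picard (2.9.0), Trim Galore (0.4.5) and Bowtie2 (2.3.4.2). Their roles and settings, read shifting for the transposase, duplicate removal and masking of problem regions are not given in the sources used here, so read depth is unknown.

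Libraries were grouped by the genotype label and numbered in the order of deposition. Summits on chromosomes 1 to 19 and X were ranked within a library, extended by 250 bp, merged and counted (Python 3.11.15, pandas 2.3.3). The merging and calling were tested on simulated lists. Regions planted there in a single genotype stood apart from others and were in every library of that genotype. Missed summits and close neighbours were thus not tried for them. Start sites and promoters came from a RefSeq table of GRCm38.p6 that covers 17273 of 21627 protein-coding genes. Group means were compared by the exact permutation test over 20 relabellings. Members, lists and motifs were chosen with earlier results of these data known. Genes were named by rule: the 5 members, regions at start sites, the 3 highest regions per window, neighbours with an end in a window, listed genes and the 3 genes most like each member. Other regions of the windows, Cd8b1 and Cd52 were named after their values were seen. The planned search for tyrosine motifs in the proteins was not run, as protein sequences were not used here.

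Alternatives were extensions of 100 and 500 bp, windows of 10 and 50 kb, scores of at least 5, lists of equal length, start site distances of 500 bp and 2 kb, each library left out in turn, and the others given in the closing section. Lists of equal length and scores of at least 5 at start sites, and the alternatives of the Cd3d count, were added after the data had been seen.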

Additional observations from a re-analysis of the deposited data

How the results depend on the processing

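Genotype-specific regions numbered 0 with other extensions, score minimum, list lengths and libraries left out, where the background over all regions was 0.102% to 1.84%, so the zeros say little about these genes. They were not counted in other windows. The regions in the windows (52) numbered 44 to 65 under the alternatives and those found in all libraries (35) 29 to 43, or 50 to 52 and 35 to 36 with single libraries left out. Of 198 alternative values, 14 changed sign and 1 count moved by over 1.5 times. With scores of at least 5 the difference of 0.667 summits in the Cd3 windows, together or singly, became 0. The signs that changed belong to differences between genotypes that passed no test. For summits in the Cd247 window (AD/- minus null, -0.333) they were 0.699 per 50000 summits, 0.333 for scores of at least 5 and 0.333 for lists of equal length, and -2.00 to 1.17 with single libraries left out, positive without AD/- library 3 or null library 3 and 0 without AD/- library 1. For the Ptcra window the value was 0.0832 per 50000 summits. At start sites Cd3d became 1.26 with lists of equal length and ran from -2.72 to 1.37 with libraries left out, positive without AD/- library 3. Cd3g ran from -2.03 to 0.0290 (positive without null library 2), Cd3e from -4.31 to -0.0550 and Cd247 from -4.33 to -2.78. Ptcra was -0.618 for scores of at least 5 and ran from -1.06 to 0.934, negative without AD/- library 2 or null library 1. The mean percentile in the Cd247 window was 0.297 with lists of equal length and ran from -3.96 to 0.335 (positive without AD/- library 3), that of the Cd3 cluster from -6.79 to -0.622 and that of Ptcra from -4.19 to -1.33. The count of 14 shared regions in the Cd3d window was 4 with 10 kb on either side, a narrower window by construction. The cause of the other changes was not tested. No paired analysis was possible because the labels give no replicate numbers. With 3 libraries a group the exact permutation test cannot give a p below 0.1, and without read counts a change in accessibility that leaves a summit in place is seen only as a shift in rank.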

Other observations

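At Cd247, 2 neighbouring high regions were each found in only some libraries. About 14 kb after the start site, AD/- libraries 2 and 3 and null library 2 had a summit at the same base, 165802174, and null library 3 at 165802119, with percentiles of 80.3, 77.7, 81.6 and 81.8. AD/- libraries 1 and 2 and null library 1 had a summit at 165803214, again at the same base, with percentiles of 80.6, 79.9 and 79.7. AD/- library 2 thus had both, each other library had 1 of the 2, and which of them it had did not follow genotype. Whether they are parts of a single element was not tested. Taken singly, these regions count as missing from 2 and 3 libraries, although every library had a summit in one or the other. Over the genome, 839 neighbouring pairs of regions no more than 2 kb apart were each missing from some library and together present in all 6, and in 91 of them both regions had a median percentile of at least 75. Among all 35328 regions missing from some library, 0.736% had such a median. This pair was singled out after its values were seen.

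One region of the Cd247 window, inside Creg1 and at -16934 bp from the Cd247 start site, had its summit at the same base, 165771747, in all 6 libraries, at percentiles of 55.3 to 63.7. This held for 1 of the 35 shared regions described here and for 1.73% of the 38374 shared regions of the genome.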
